A study of Mus musculus with 18 samples.

Results

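Members of the STAT family (signal transducers and activators of transcription) were followed at the RNA level in naive CD4 T cells given interleukin 6 (IL-6) or interleukin 27 (IL-27), with and without STAT3. The genes are Stat2, Stat3, Stat4, Stat5a, Stat5b and Stat6, which are 6 of the 7 STAT genes, taken by family membership and not by their values; the remaining one is not analysed here. They were read from every probe set annotated to 1 of these genes alone, 13 of the 45101 on the array, which has a probe set of its own for 18193 genes. A probe set is a group of short probes whose brightness is summed up as 1 signal for a transcript. Stat3 has 4 probe sets, Stat4 has 1, and Stat2, Stat5a, Stat5b and Stat6 have 2 each. All 13 lay above the median signal of the array on each of the 18 arrays, so all 13 passed the filter on dim probe sets, as did 26860 probe sets in all.

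Total RNA was hybridised to Affymetrix 430 2.0 mouse arrays, 3 in each of 6 groups that the series calls biological triplicates without naming the animals. Every group held C57BL/6J cells from spleen and lymph nodes, sorted as CD4+CD44-CD62L+CD25- and kept in culture for 3 hours. Wild type (WT) cells received medium alone, IL-6 at 20 ng/ml or IL-27 at 20 ng/ml, and so did cells of the genotype Cd4-Cre_C57BL6-STAT3<tm1Dlv>, labelled STAT3KO and called STAT3-deficient or KO here. In that genotype the Cre recombinase is driven by Cd4, so that the Stat3 allele is deleted in cells that have switched on Cd4, and the label of the WT cells names no Cre; age and sex are not in the labels. Because each sample is bulk RNA, fewer cells of a type and less RNA per cell cannot be told apart.

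STAT proteins wait in the cytoplasm until a cytokine receptor and its Janus kinases (JAKs) phosphorylate them, after which they pair, enter the nucleus and bind DNA. STAT3 is the main factor downstream of the shared receptor chain gp130 (Il6st), which both IL-6 and IL-27 use, and STAT2 works with IRF9 in the response to type I interferons. STAT4 serves IL-12, STAT6 serves IL-4, and the closely related STAT5A and STAT5B serve IL-2 and IL-7. STAT genes can themselves be targets of cytokine signals, and their messenger RNA, which is what the array reads, does not tell whether the protein is phosphorylated.

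The arrays held T cell RNA throughout, since all 7 measured CD4 T cell markers lay above the array median on all 18 arrays. The deposited sum of these markers in medium was 64138 to 70405 in WT and 48272 to 55807 in STAT3-deficient arrays. After quantile normalisation their median difference in medium was 0.01, with 1 of 7 called higher and 1 lower. The arrays also differed by genotype in ways that touch the genotype comparisons below. The median signal as deposited was 104.4 to 126.8 on the 9 WT arrays and 131.5 to 190.4 on the 9 STAT3-deficient arrays. The summed signal of 8 B cell markers was 748.1 to 1116.3 in WT and 2035.2 to 4019.6 in STAT3-deficient arrays, with 6 of 7 tested markers called higher in medium, while the B cell factor Pax5 lay above the array median on 0 arrays. The summed signal of 8 myeloid markers was 640.6 to 1123.6 in WT and 1162.3 to 1686.3 in STAT3-deficient arrays. These sums, like those of the B cell markers, are on the deposited scale, on which the array medians are higher too. After quantile normalisation the median difference in medium of the 6 tested myeloid markers was -0.26. Lyz2 was called higher and Cd68 and Fcgr3 lower, and Cd14 and Itgam lay above the median on 0 arrays. Of the 5 tested CD8 T and NK cell markers, 2 were called higher and 2 lower. Of 2 red blood cell markers 1 was tested and not called (deposited sums of 24.1 to 99.6 in WT and 98.9 to 472.2 in STAT3-deficient arrays). All these calls are for genotype in medium, where 11.3% of all probe sets were called higher and 13.0% lower. Genotype and these differences between arrays cannot be told apart.

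Changes are given as log2 differences of the signal plus 32 after quantile normalisation, with their standard error (SE) from limma over 3 arrays a group, and a probe set was called at an adjusted p under 0.05 over all 26860. In WT cells IL-6 raised 5 of the 13 STAT probe sets, of Stat2 and Stat3, and lowered 1, of Stat5a, where 2.97% and 3.22% of all probe sets were called higher and lower. IL-27 raised the same 5 in WT cells, where 1.99% were called higher and 1.07% lower, and it raised them in STAT3-deficient cells too, where 2.62% were higher and 0.983% lower. IL-6 raised these 5 in STAT3-deficient cells, where 1.33% were higher and 0.0968% lower. The comparisons of IL-6 and of IL-27 with medium share their medium arrays within a genotype, so a probe set called in both is not 2 independent observations. The median change over the 13 was 0.16 with IL-6 and 0.01 with IL-27 in WT cells, and 0.06 and 0.04 in STAT3-deficient cells, beside medians of all probe sets between -0.03 and -0.01.

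**Figure D1:**
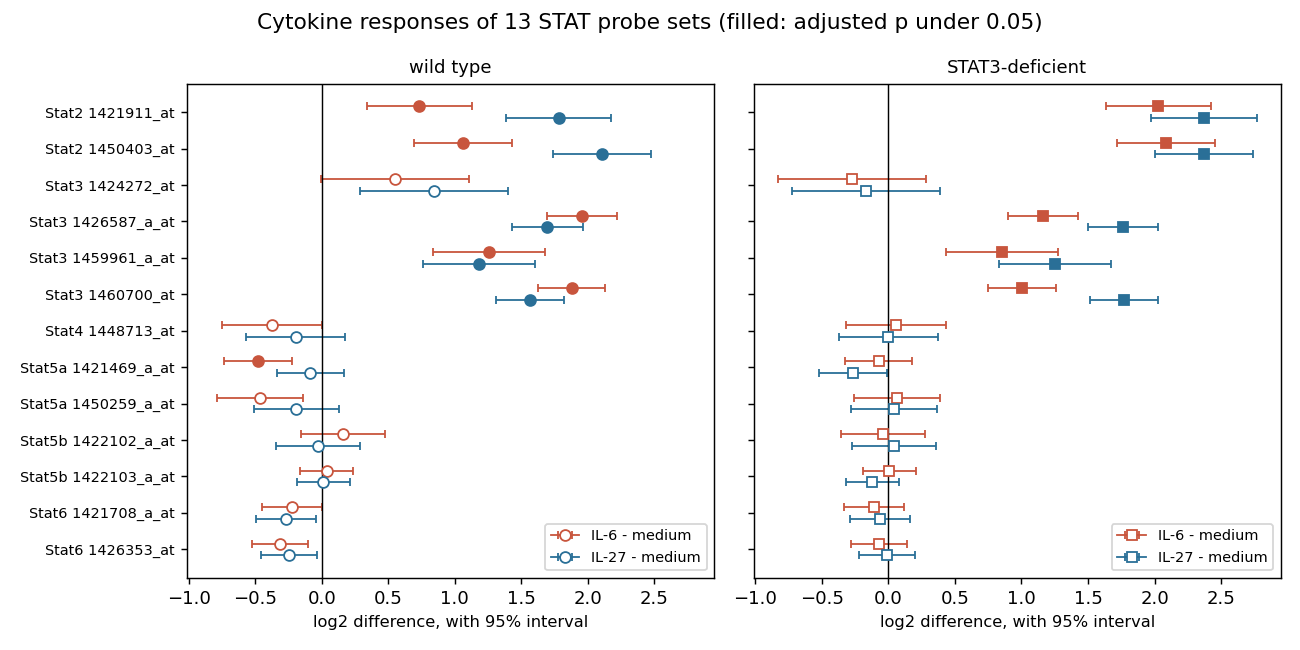
Log2 difference from medium (horizontal axis) of each of the 13 STAT probe sets after IL-6 or IL-27, in wild type and in STAT3-deficient cells; points are limma estimates, whiskers their 95% intervals, and filled points passed an adjusted p under 0.05. Both Stat2 probe sets and 3 of the 4 Stat3 probe sets are filled on the right of 0 in both panels, and the Stat5a probe set 1421469_a_at is filled on the left of 0 only for IL-6 in wild type.

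Stat3 is the gene that the STAT3-deficient genotype targets, and its 4 probe sets did not behave alike. No source used here says where along the transcript each of them reads, and a probe set outside the deleted stretch would check nothing about the deletion. Probe set 1460700_at read 3101, 2632 and 2361 in WT medium and 1122, 1265 and 1109.7 in STAT3-deficient medium. The lowest WT array lay above the highest STAT3-deficient one, and the difference was -1.11 ± 0.12 (SE, n = 3 per group, adjusted p = 1.15e-05), 2.16-fold lower without STAT3. Probe set 1426587_a_at read 2384, 2207 and 1833 in WT medium and 1021, 1074 and 1108 in STAT3-deficient medium, again without overlap, a difference of -0.92 ± 0.13 (adjusted p = 9.76e-05). Signal in medium was lower but present in this pair, called the concordant pair here because the values of both move together over the arrays.

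The other pair of Stat3 probe sets was not lower in STAT3-deficient medium. Probe set 1459961_a_at read 155, 152 and 235 in WT and 261, 377 and 207 in STAT3-deficient medium, overlapping groups that differed by 0.12 ± 0.20 (95% interval -0.30 to 0.54, adjusted p = 0.704). Probe set 1424272_at was higher, with 209.7, 224 and 203 in WT and 569, 382 and 508 in STAT3-deficient medium, a difference of 0.80 ± 0.27 (adjusted p = 0.0345). This last call was lost in 7 of 16 alternative settings, among them each of the 5 fits without 1 array other than STAT3-deficient medium replicate 2 (adjusted p from 0.0745 to 0.121), and probe set 1459961_a_at was called higher on the deposited scale (0.55, adjusted p = 0.0356).

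IL-6 raised Stat3 more than 3-fold in WT cells by the concordant pair of probe sets. Probe set 1460700_at read 9895, 9769 and 11002 with IL-6 and 8195, 7724 and 9260.0 with IL-27. Every treated WT array lay above every WT medium array, and every IL-6 array above every IL-27 array. The changes were 1.88 ± 0.12 with IL-6 (3.68-fold, adjusted p = 4.34e-09) and 1.57 ± 0.12 with IL-27 (2.96-fold, adjusted p = 4.35e-08). Although the arrays did not overlap, the difference between the cytokines missed the threshold, at -0.31 ± 0.12 (95% interval -0.57 to -0.06, adjusted p = 0.314). Probe set 1426587_a_at gave 1.96 ± 0.13 with IL-6 and 1.70 ± 0.13 with IL-27, and 1459961_a_at gave 1.25 ± 0.20 and 1.18 ± 0.20, all called. Probe set 1424272_at gave 0.55 ± 0.27 (adjusted p = 0.320) and 0.85 ± 0.27 (adjusted p = 0.108) and was not called for either cytokine; for IL-27 it was called with only the compared arrays in the fit (adjusted p = 0.00999) and without the STAT3-deficient arrays numbered 3 (adjusted p = 0.0349).

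Stat3 signal also rose with both cytokines in STAT3-deficient cells, and there IL-27 gave the larger change. Probe set 1460700_at read 2540.4, 2124 and 2408 with IL-6 and 4311, 4638 and 3174 with IL-27, so that all 3 IL-27 arrays lay above all 3 IL-6 arrays, and these above all 3 medium arrays. The changes were 1.00 ± 0.12 with IL-6 (2.01-fold, adjusted p = 2.92e-05) and 1.77 ± 0.12 with IL-27 (3.41-fold, adjusted p = 6.65e-09). The IL-6 arrays of STAT3-deficient cells reached the level of WT cells in medium, with overlapping signals, while the IL-27 arrays lay between WT medium and the treated WT arrays. Probe set 1426587_a_at gave 1.16 ± 0.13 and 1.76 ± 0.13, and 1459961_a_at gave 0.85 ± 0.20 (adjusted p = 0.0360) and 1.25 ± 0.20. The IL-6 call of 1459961_a_at was lost in 11 of 17 alternatives (adjusted p from 0.0584 to 0.355), among them the deposited scale, median centring, no filter and each fit without 1 array other than STAT3-deficient medium replicate 2. Probe set 1424272_at stood at -0.28 ± 0.27 and -0.17 ± 0.27, neither called.

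The difference between genotypes in the response itself was tested as an interaction. For IL-6, the Stat3 change without STAT3 was smaller by 0.87 ± 0.17 on the log2 scale for 1460700_at (interaction -0.87, adjusted p = 0.00770) and by 0.79 ± 0.18 for 1426587_a_at (interaction -0.79, adjusted p = 0.0202). The interactions of 1459961_a_at and 1424272_at, at -0.40 ± 0.28 and -0.83 ± 0.37, were not called. For IL-27 the interactions were 0.20 ± 0.17 for 1460700_at (95% interval -0.16 to 0.56, adjusted p = 0.781) and 0.07 ± 0.18 for 1426587_a_at (95% interval -0.31 to 0.44), so a difference of the size seen with IL-6 in the same direction lay outside these intervals. Direct comparison of the cytokines in STAT3-deficient cells called 1 STAT probe set, 1460700_at, at 0.76 ± 0.12 (1.70-fold, adjusted p = 0.00518), where 0.197% of all probe sets were called higher and 0.00745% lower; 1426587_a_at stood at 0.60 ± 0.13 (adjusted p = 0.0648) and was called without STAT3-deficient IL-6 replicate 1 or IL-27 replicate 3 (adjusted p = 0.0184 and 0.0172). With median centring of the arrays the IL-6 interactions were -0.70 (adjusted p = 0.267) and -0.64 (adjusted p = 0.355) and the comparison of cytokines by 1460700_at had an adjusted p of 0.346. The interaction of 1426587_a_at was also lost without the variance trend and without WT medium replicate 3, WT IL-6 replicate 3 or STAT3-deficient IL-6 replicate 2 (adjusted p from 0.0527 to 0.0720). The comparison of cytokines was also lost with only the compared arrays in the fit (adjusted p = 0.192) and without STAT3-deficient IL-6 replicate 2 or IL-27 replicate 1 or 2 (adjusted p from 0.0525 to 0.0568).

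**Figure D2:**
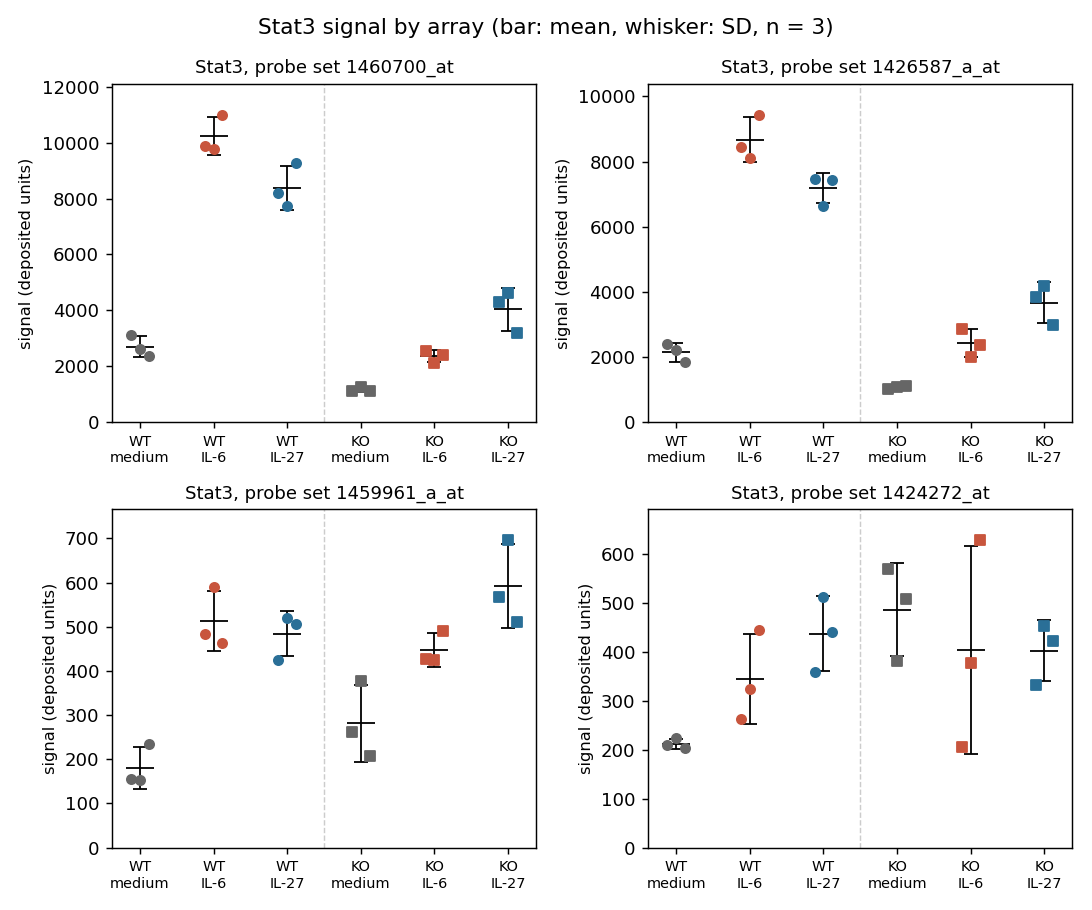
Deposited signal (vertical axis, from 0, a separate scale for each probe set) of the 4 Stat3 probe sets on each of the 18 arrays, by genotype and treatment; points are arrays, bars group means and whiskers the SD of 3 arrays. In the upper panels the treated wild type arrays stand far above the rest, and in the lower right panel, probe set 1424272_at, the STAT3-deficient groups overlap one another.

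The promoter of Stat3 is printed here because its transcript both changed with cytokine and was the target of the deletion. It is the RefSeq window on GRCm38.p6 from 250 bases before to 50 bases after the annotated start, at chr11:100939491-100939790 on the minus strand. It was searched on both strands for the STAT dimer element GAS (TTCNNNGAA, present in 8.3% of 32851 mouse promoter windows of this length) and for the interferon-stimulated response element ISRE (GAAANNGAAA, present in 3.44%), and held neither.
Stat3: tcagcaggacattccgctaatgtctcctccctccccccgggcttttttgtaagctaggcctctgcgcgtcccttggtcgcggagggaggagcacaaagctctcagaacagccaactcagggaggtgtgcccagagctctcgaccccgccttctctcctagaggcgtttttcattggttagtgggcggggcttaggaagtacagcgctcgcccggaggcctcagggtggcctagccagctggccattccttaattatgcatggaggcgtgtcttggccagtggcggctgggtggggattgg
Along the chromosome Stat5b, Stat5a and Stat3 are direct neighbours in that order. In the genotype comparison below all 3 genes had probe sets called, where 11.3% of all probe sets were called higher and 13.0% lower. Within each gene the probe sets differed in direction or in call, and a link with position was not tested.

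Stat2, which pairs with IRF9 to form the interferon-stimulated gene factor, rose with both cytokines and in both genotypes. In WT cells probe set 1450403_at read 363, 235 and 188 in medium, 722, 544 and 529.9 with IL-6 and 1316, 1264 and 1311 with IL-27. The 3 groups did not overlap, with medium lowest and IL-27 highest. The changes were 1.06 ± 0.17 with IL-6 (2.09-fold, adjusted p = 0.000468) and 2.11 ± 0.17 with IL-27 (4.30-fold, adjusted p = 1.24e-07). Probe set 1421911_at gave 0.73 ± 0.19 (adjusted p = 0.0216) and 1.78 ± 0.19 (adjusted p = 3.75e-06), from signals of 319, 251 and 198 in medium, 661, 391 and 368 with IL-6 and 1198, 851 and 1054 with IL-27. IL-6 replicate 1 stood well above the other two here, and without it the IL-6 change was 0.50 (adjusted p = 0.149); it also lost its call without WT medium replicate 2 or 3 (adjusted p = 0.0708 and 0.112), with median centring (adjusted p = 0.0908) and with only the compared arrays in the fit (adjusted p = 0.0617).

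Both Stat2 probe sets were called between the cytokines in WT cells, and no other STAT probe set was, except Stat5a 1421469_a_at with the sample number as a replicate block within genotype (0.39, adjusted p = 0.0204). IL-27 exceeded IL-6 by 1.04 ± 0.17 for 1450403_at (2.06-fold, adjusted p = 0.00139) and by 1.05 ± 0.19 for 1421911_at (2.07-fold, adjusted p = 0.00266). These 2 of 13 probe sets compare with 1.28% of all probe sets called higher and 1.05% lower in that comparison.

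In STAT3-deficient cells Stat2 rose with both cytokines, and no difference between them was called. Probe set 1450403_at read 286, 324 and 230.3 in medium, 1086, 1099.7 and 1016 with IL-6 and 1298, 1476 and 1133 with IL-27. Every treated array lay above 3 times the highest medium array. The changes were 2.08 ± 0.17 with IL-6 (4.24-fold, adjusted p = 2e-07) and 2.37 ± 0.17 with IL-27 (5.17-fold, adjusted p = 1.91e-08). Probe set 1421911_at, with 331, 291 and 319 in medium, 1136, 1173 and 1188 with IL-6 and 1537, 1740.0 and 1224 with IL-27, changed by 2.03 ± 0.19 (4.08-fold) and 2.37 ± 0.19 (5.17-fold). The difference between the cytokines was 0.29 ± 0.17 (95% interval -0.08 to 0.65) and 0.34 ± 0.19 (95% interval -0.05 to 0.74), not called; whether these differ from the WT differences above was not tested.

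The IL-6 response of Stat2 was larger without STAT3, the opposite direction to that of Stat3. The interaction was 1.30 ± 0.27 for 1421911_at (adjusted p = 0.0109) and 1.02 ± 0.25 for 1450403_at (adjusted p = 0.0331). Together with the concordant Stat3 pair above, 2 of 13 STAT probe sets were called higher and 2 lower in this comparison. Of all probe sets 1.25% and 0.964% were, and 56.4% of those calls were higher, or 72.4% with median centring. Both Stat2 calls were lost on the deposited scale (1.01, adjusted p = 0.0645, and 0.69, adjusted p = 0.222) and with median centring (1.23, adjusted p = 0.0814, and 0.91, adjusted p = 0.196), and 1450403_at lost its call in 15 of 23 alternatives. For IL-27 the Stat2 interactions were 0.59 ± 0.27 (95% interval 0.03 to 1.15, adjusted p = 0.684) and 0.26 ± 0.25 (95% interval -0.26 to 0.78). In medium Stat2 did not differ detectably between the genotypes, at -0.06 ± 0.19 (95% interval -0.46 to 0.34) and -0.25 ± 0.17 (95% interval -0.61 to 0.12), and the sign of both turned on the deposited scale (0.28 and 0.12).

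The IL-27 interaction called 0 of the 13 STAT probe sets by limma. Of all probe sets 0.00372% were called in each direction at that adjusted threshold. At an unadjusted p under 0.05, a looser threshold that this share does not count, the 13 held 1 higher, Stat2 1421911_at, and 1 lower, Stat3 1424272_at.

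The Stat2 promoter is printed because it is the STAT gene whose level moved with both cytokines in both genotypes by every probe set. It lies at chr10:128270248-128270547 on the plus strand (RefSeq, GRCm38.p6) and holds 1 match to the ISRE letters, on the minus strand, shown in capitals, whose first base lies 222 bases before the start; it holds no GAS match.
Stat2: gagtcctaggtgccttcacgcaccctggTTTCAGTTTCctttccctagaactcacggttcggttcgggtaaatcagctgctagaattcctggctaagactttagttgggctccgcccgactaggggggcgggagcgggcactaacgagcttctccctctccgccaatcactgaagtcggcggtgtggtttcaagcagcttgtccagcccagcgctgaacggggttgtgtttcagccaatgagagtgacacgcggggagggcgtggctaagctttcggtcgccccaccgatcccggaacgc
A match says only that these letters are present in the window.

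**Figure D3:**
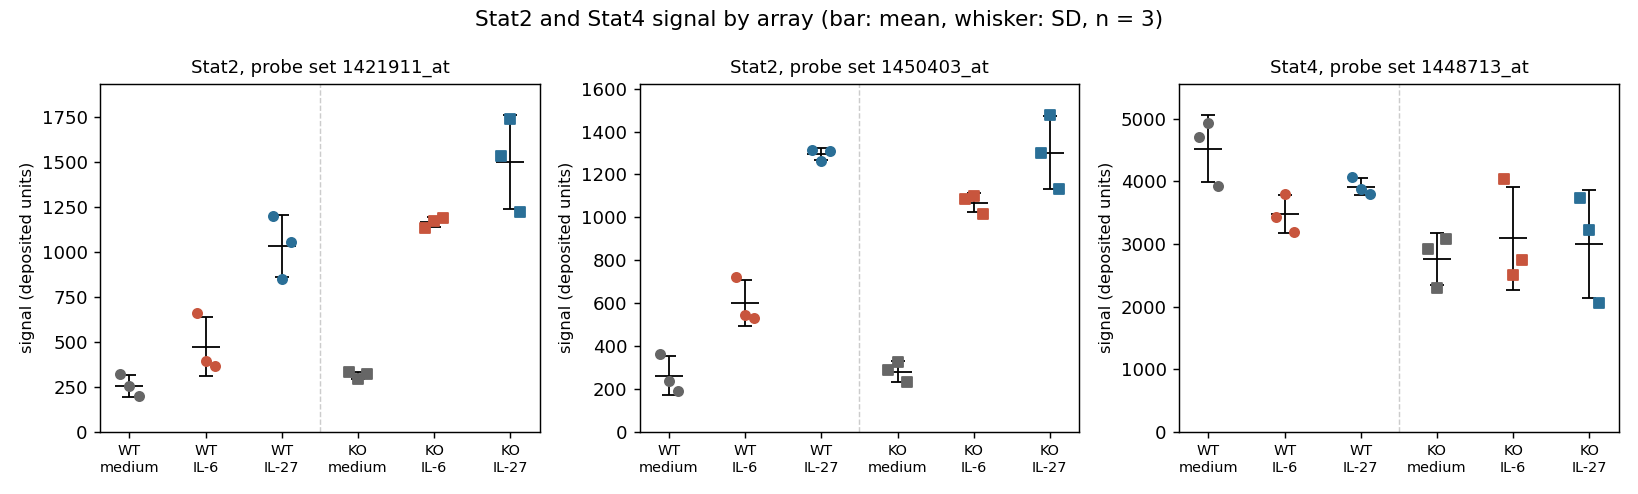
Deposited signal (vertical axis, from 0, a separate scale for each probe set) of both Stat2 probe sets and the Stat4 probe set on each of the 18 arrays; points are arrays, bars group means and whiskers the SD of 3 arrays. Stat2 is low in medium in both genotypes, intermediate with IL-6 in wild type and high in the other treated groups, and the Stat4 groups of STAT3-deficient cells overlap one another.

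Stat4, the factor of the IL-12 pathway, was read by 1 probe set and was called in 1 comparison, that of the genotypes in medium. Its signal was 4714, 4934 and 3923 in WT medium and 2919, 2298 and 3079 in STAT3-deficient medium, without overlap. The difference was -0.52 ± 0.18 (1.43-fold lower, adjusted p = 0.0409). It was at 3435, 3800.3 and 3196 with IL-6 and 4064, 3876 and 3803 with IL-27 in WT cells, and at 4036, 2499 and 2746 and 3741, 3221 and 2056 in STAT3-deficient cells. The IL-6 change in WT cells was -0.37 ± 0.18 (95% interval -0.75 to 0.00, adjusted p = 0.321), and the other cytokine changes lay between -0.20 and 0.06. The genotype call was lost in 6 of 16 alternatives, including the fits without WT medium replicate 1 or 2 and without STAT3-deficient medium replicate 1 or 2 (adjusted p from 0.0561 to 0.177). With median centring the difference was -1.25, where that scaling moves the median of all probe sets to -0.36. Of the 2 RefSeq promoter windows of Stat4, the one at chr1:52007990-52008289 on the plus strand (GRCm38.p6) held 1 ISRE match, in capitals, 97 bases before the start, and no GAS match; it is printed as the other STAT window with a match.
Stat4: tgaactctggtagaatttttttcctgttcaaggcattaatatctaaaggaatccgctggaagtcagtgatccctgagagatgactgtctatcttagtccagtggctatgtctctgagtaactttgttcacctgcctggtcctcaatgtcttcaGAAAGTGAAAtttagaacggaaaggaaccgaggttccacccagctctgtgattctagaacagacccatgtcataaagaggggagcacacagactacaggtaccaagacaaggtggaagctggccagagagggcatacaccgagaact

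Stat5a, which relays IL-2 and IL-7, gave the 1 called decrease of a STAT probe set with a cytokine. Probe set 1421469_a_at read 1726, 1653 and 2033 in WT medium and 1258, 1291 and 1218 with IL-6, without overlap, a change of -0.48 ± 0.12 (1.39-fold lower, adjusted p = 0.0185). With IL-27 it read 1586, 1526 and 1932, overlapping medium (-0.08 ± 0.12, adjusted p = 0.856). The second probe set, 1450259_a_at, read 1260.2, 1209.7 and 1038 in medium and 797, 818 and 799 with IL-6. These arrays did not overlap either, and the change of -0.46 ± 0.15 missed the threshold (adjusted p = 0.0926). The call of 1421469_a_at was lost with median centring and without WT medium replicate 3 or IL-6 replicate 1 or 3 (adjusted p from 0.0628 to 0.097), and 1450259_a_at was called in 4 alternatives (adjusted p from 0.0229 to 0.0427). In STAT3-deficient cells the IL-6 changes were -0.07 ± 0.12 and 0.06 ± 0.15, and the interactions, 0.41 ± 0.17 (adjusted p = 0.345) and 0.53 ± 0.22 (adjusted p = 0.328), were not called. Some cell type markers were also called lower after IL-6 in WT cells. The summed signal of 7 CD4 T cell markers was 64138 to 70405 in WT medium and 51765 to 54819 with IL-6, with 4 of 7 called lower and a median change of -0.65. Both measured markers of the naive state were called lower (sums of 34361 to 38086 and 25341 to 26813), as was 1 of 5 tested CD8 T and NK cell markers (sums of 7 genes of 2699 to 3257 and 1638 to 1794). Of 6 tested myeloid markers 1 was called lower (sums of 8 genes of 873.7 to 1123.6 and 640.6 to 732.7), and of 7 tested B cell markers 0 were called. Of all probe sets 3.22% were called lower and 2.97% higher in this comparison. The part of these marker changes in the Stat5a decrease was not tested.

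Stat5b, the close relative of Stat5a, showed no called change with either cytokine in either genotype. Over both probe sets the 4 changes from medium of each lay between -0.12 and 0.16, and their 95% intervals between -0.36 and 0.48. Stat6, the factor of the IL-4 pathway, was likewise not called. Its probe set 1426353_at read 6388, 5656 and 5783 in WT medium, 4877, 5137 and 4609 with IL-6 and 5518, 4784 and 4972 with IL-27, so that all 6 treated arrays lay below all 3 medium arrays, with changes of -0.31 ± 0.10 (adjusted p = 0.0782) and -0.24 ± 0.10 (adjusted p = 0.287). The IL-6 change of this probe set passed the threshold in 4 alternatives (adjusted p from 0.0208 to 0.0400). Probe set 1421708_a_at gave -0.22 ± 0.11 and -0.27 ± 0.11 in WT cells, and in STAT3-deficient cells the 4 Stat6 changes lay between -0.11 and -0.01.

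In medium, STAT3-deficient cells differed from WT cells in 7 of the 13 STAT probe sets, 3 higher and 4 lower, where 11.3% of all probe sets were called higher and 13.0% lower. Apart from Stat3 and Stat4 these were Stat5a and Stat5b, whose probe sets went in different directions. Stat5a 1421469_a_at was 1.80-fold higher without STAT3 (2523, 3281 and 3014, difference 0.85 ± 0.12, adjusted p = 0.000129), with all 9 STAT3-deficient arrays above all 9 WT arrays. Stat5a 1450259_a_at read 842, 1119 and 1111, overlapping WT medium, with a difference of -0.17 ± 0.15 (adjusted p = 0.453). Stat5b 1422103_a_at read 5428, 4710.3 and 5140.3 in WT and 6161, 5784 and 6602 in STAT3-deficient medium (0.50 ± 0.10, adjusted p = 0.0013). Stat5b 1422102_a_at went the other way, with 990.5, 1407 and 1069 in WT and 752, 761 and 875 in STAT3-deficient medium (-0.52 ± 0.15, adjusted p = 0.0188), also without overlap. The Stat6 probe sets stood at -0.10 ± 0.11 and 0.13 ± 0.10 and were not called.

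These genotype differences depend on how the arrays are put on 1 scale, which cannot be told apart from genotype here. The median of all probe sets was 0.00 after quantile normalisation, 0.18 on the deposited scale and -0.36 with median centring, and the share of calls that were higher was 46.4%, 64.1% and 11.4%. With median centring the direction of Stat5b 1422103_a_at turned to -0.26 (adjusted p = 0.183), which is 0.10 relative to that median. Stat6 1426353_at was then called lower at -0.62, which is -0.26 relative to it. Stat5a 1421469_a_at stood at 0.15 (adjusted p = 0.491), or 0.51 relative to the median, and Stat5a 1450259_a_at and Stat6 1421708_a_at were called lower at -0.73 and -0.71, beside that median of -0.36. The concordant Stat3 pair was lower under all 3 scalings, at -1.36 and -1.16 relative to the median with either alternative. Both alternatives give the same values relative to the median by construction, since median centring only shifts each array by a constant. Stat5b 1422102_a_at lost its call without WT medium replicate 2 or STAT3-deficient medium replicate 1 or 2 (adjusted p from 0.0612 to 0.109). The part of the B cell and myeloid marker signal given above in these differences was not tested.

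**Figure D4:**
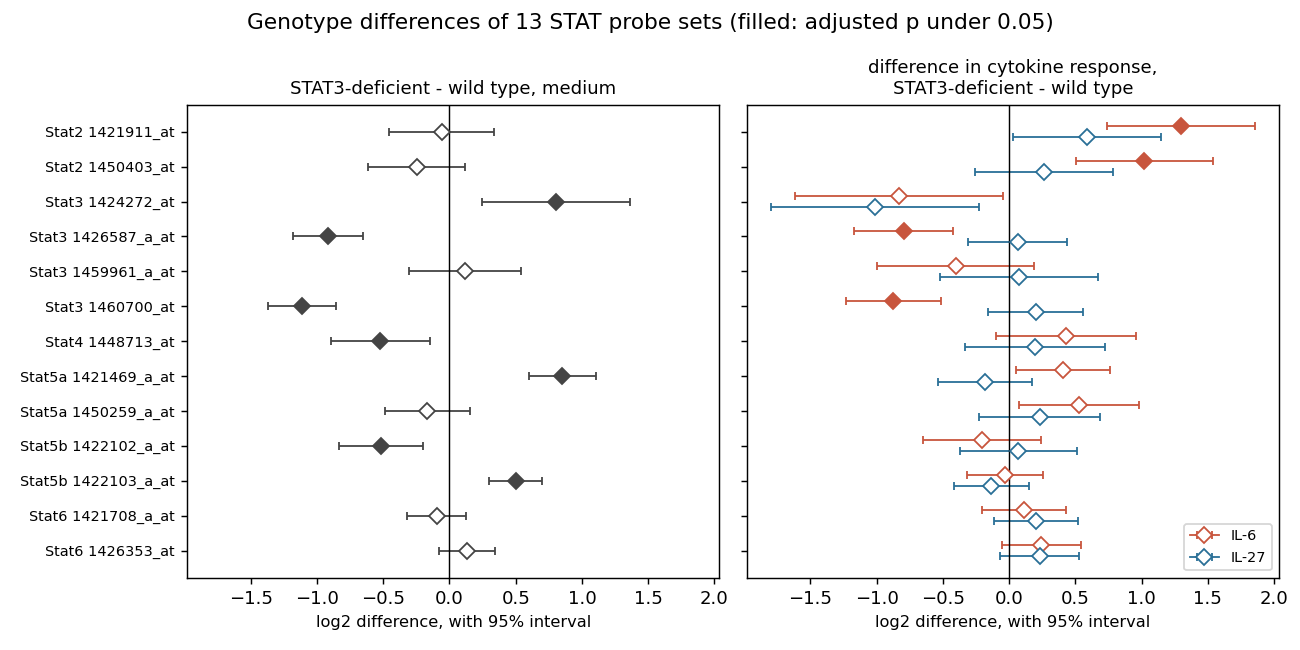
Left, log2 difference between STAT3-deficient and wild type cells in medium for the 13 STAT probe sets; right, the difference between the genotypes in the response to IL-6 and to IL-27. Points are limma estimates, whiskers 95% intervals, and filled points passed an adjusted p under 0.05: 7 on the left, where the sign of Stat5b 1422103_a_at and Stat6 1426353_at turns with median centring and that of Stat6 1426353_at and both Stat2 probe sets on the deposited scale, and 4 on the right, all for IL-6.

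**Figure D5:**
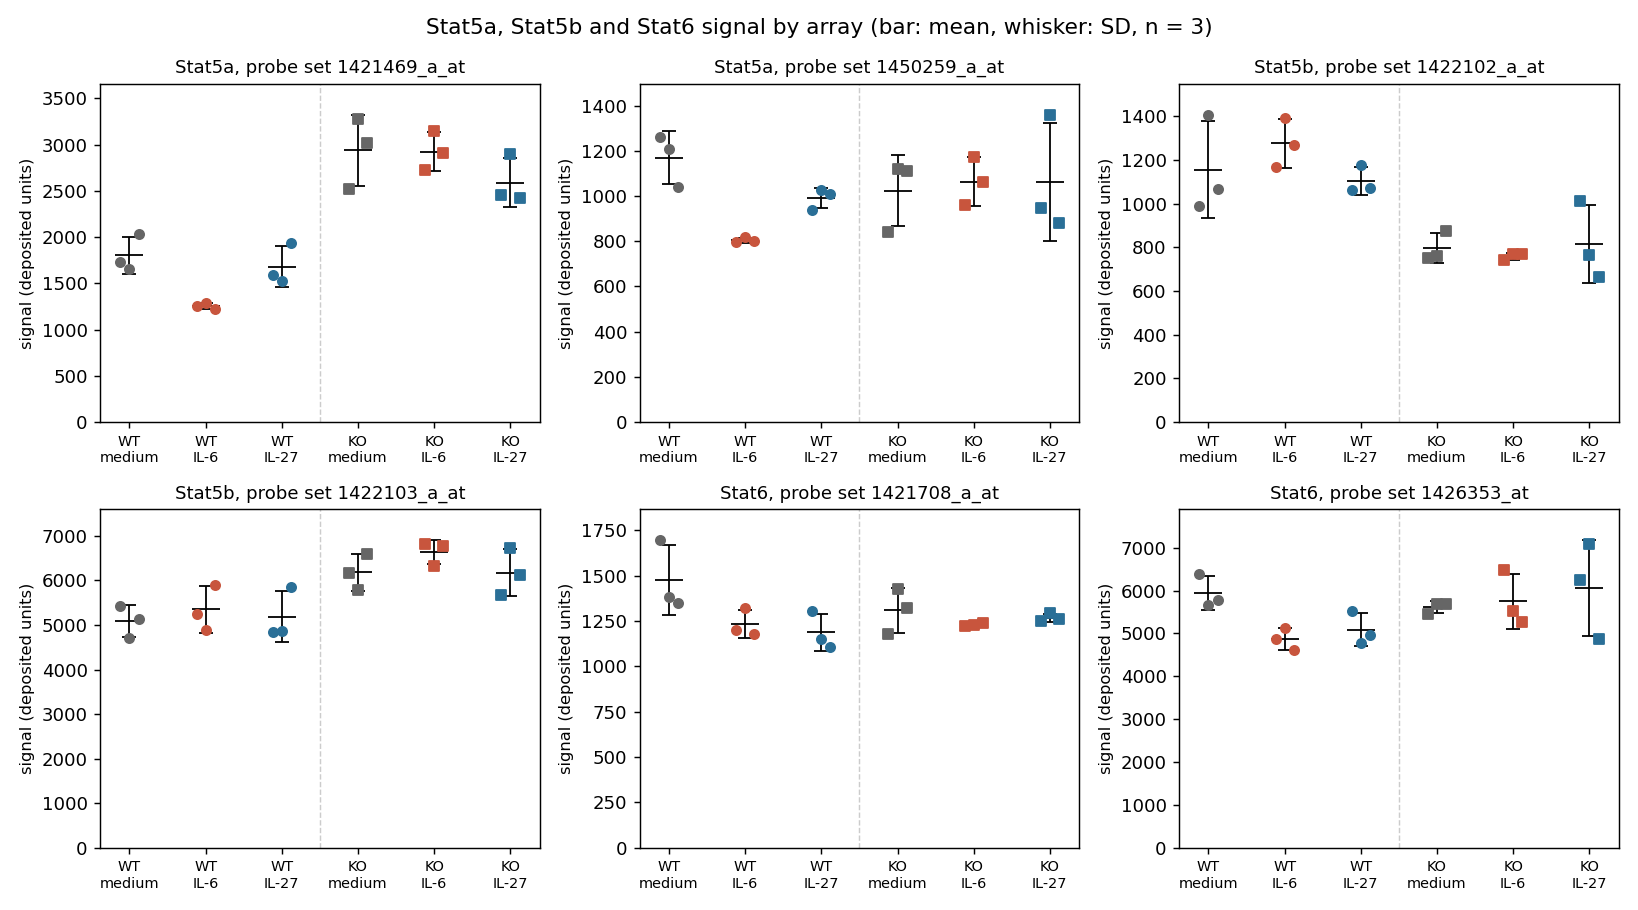
Deposited signal (vertical axis, from 0, a separate scale for each probe set) of the Stat5a, Stat5b and Stat6 probe sets on each of the 18 arrays; points are arrays, bars group means and whiskers the SD of 3 arrays. In medium the STAT3-deficient arrays lie above the wild type arrays for Stat5a 1421469_a_at and Stat5b 1422103_a_at (the latter turns with median centring) and below them for Stat5b 1422102_a_at, and the other 3 probe sets overlap between genotypes.

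Ordered by normalised level over the 6 groups, the STAT genes fell into distinct patterns. For the concordant pair of Stat3 probe sets the order was WT with IL-6, WT with IL-27 and STAT3-deficient with IL-27, each apart from the next. WT medium and STAT3-deficient with IL-6 followed and overlapped, with WT medium the higher by 1460700_at and the lower by 1426587_a_at. STAT3-deficient medium came last, apart from the rest. For Stat2 1450403_at both IL-27 groups came first and overlapped, followed by STAT3-deficient with IL-6 and WT with IL-6, each apart, and both medium groups overlapped at the bottom. Stat2 1421911_at put STAT3-deficient with IL-27 first, apart from STAT3-deficient with IL-6, which overlapped WT with IL-27 below it. For Stat5a 1421469_a_at and Stat5b 1422103_a_at the 3 STAT3-deficient groups came first, neighbours in the order overlapping, and apart from the WT groups. In medium the direction of Stat5b 1422103_a_at turns with median centring, as given above. The other probe sets of these genes were ordered differently. Stat5b 1422102_a_at had the 3 WT groups first, and Stat5a 1450259_a_at had WT medium first and WT with IL-6 last. For Stat6 1421708_a_at and Stat3 1424272_at every neighbouring pair of groups overlapped.

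Probe sets of 1 gene followed each other to different degrees over the 18 arrays, which share groups and libraries. Pearson's r was 0.96 for the Stat2 pair and 0.99 for Stat3 1426587_a_at with 1460700_at. Stat3 1459961_a_at followed these at 0.74 and 0.71, and 1424272_at followed the other 3 at 0.08 to 0.28. The Stat5a pair had r = 0.45, the Stat6 pair 0.41 and the Stat5b pair -0.85, where the genotypes differ in opposite directions in the signals above. These values are descriptions of the probe sets, without a test.

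Over the same 18 arrays, and among 11965 other genes read from their brightest probe set, the genes whose level was most like each STAT gene differed between STATs. For Stat2 1450403_at they were Psmb10, an immunoproteasome subunit (r = 0.98), Gbp7, an interferon-inducible GTPase (0.98), Samhd1, a nucleotide hydrolase that restricts viruses (0.97), and Parp9 (0.97). For Stat3 1460700_at they were Ndrg3 (0.95), the transcriptional repressor Etv6 (0.95), the CD30 ligand Tnfsf8 (0.94) and the stress kinase Map3k5 (0.94). Stat4 was most like Lyrm4, Fra10ac1, Pld3 and Scp2 (0.93, 0.93, 0.93 and 0.92). Stat5a 1421469_a_at was most like Iqgap1 (0.97), Smad7, an inhibitor of TGF-beta signalling (0.96), Tlk1 (0.96) and Zfp275 (0.96). Stat5b 1422103_a_at was most like Zhx2, Cep350, Ppif and Ctbp1, each at 0.93. Stat6 1426353_at was most like Ikbkb, a kinase of the NF-kappa-B pathway (0.98), Akap13 (0.94), Atp10d (0.94) and Hsdl1 (0.93). The arrays share group, genotype and overall signal, so such likeness is a description.

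Of 19 measured receptor chains and kinases that feed the STAT proteins, IL-6 called 6 higher and 3 lower in WT cells, where 2.97% and 3.22% of all probe sets were. With IL-27 in WT cells 3 were called higher and 3 lower, where 1.99% and 1.07% of all were. With IL-6 the called changes included Jak3, the kinase of the common gamma chain, at 1.50 ± 0.22, Il12rb2, the signalling chain of the IL-12 receptor, at 1.47 ± 0.36, and Il6st at 0.87 ± 0.12. With IL-27 they included Il12rb2 at 1.34 ± 0.36 and Jak3 at 1.30 ± 0.22, and Jak1 was lower with IL-6 (-0.72 ± 0.09) and with IL-27 (-0.51 ± 0.09). IL-27 against IL-6 in WT cells called 3 of the 19 lower, Il21r (-1.22 ± 0.13), Il6st (-1.10 ± 0.12) and Il4ra (-0.49 ± 0.09). Of all probe sets 1.28% were called higher and 1.05% lower there. In STAT3-deficient cells IL-6 called 0 of 19 by limma, where 1.33% of all probe sets were called higher and 0.0968% lower. At an unadjusted p under 0.05 it held 3 of the 19 higher and 1 lower. IL-27 called 2 there, Il12rb2 at 2.46 ± 0.36 and Ifngr1 at 0.31 ± 0.08, where 2.62% of all were higher and 0.983% lower. The IL-6 interaction called 3 higher and 4 lower, where 1.25% and 0.964% of all probe sets were. It was led by Jak3 at -1.66 ± 0.31, Il21r at -0.92 ± 0.18 and Il6st at -0.90 ± 0.17. In medium, Jak2 (0.89 ± 0.10), Tyk2 (0.54 ± 0.11), Il27ra and Jak1 were called higher and Ifngr2 (-1.13 ± 0.13) and Il6ra (-0.69 ± 0.17) lower without STAT3, where 11.3% and 13.0% of all probe sets were called higher and lower, shares that move with the scaling as given above. The median change of the 19 was -0.08 with IL-6 and 0.16 with IL-27 in WT cells.

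The feedback inhibitors Socs1 and Socs3 rose with both cytokines in both genotypes. Of 20 measured feedback and modifier genes, 4 were called higher with IL-6 in WT cells, 4 with IL-27, 3 with IL-6 in STAT3-deficient cells and 4 with IL-27, where 2.97%, 1.99%, 1.33% and 2.62% of all probe sets were, and none of these 4 comparisons called any lower by limma (0, 1, 0 and 1 lower at an unadjusted p under 0.05). Socs3, the inhibitor that binds gp130, rose by 4.18 ± 0.15 with IL-6 and 2.34 ± 0.15 with IL-27 in WT cells, and by 0.77 ± 0.15 and 1.43 ± 0.15 in STAT3-deficient cells, with an IL-6 interaction of -3.41 ± 0.22. Socs1, the inhibitor of JAK kinases, rose by 1.96 ± 0.20, 3.28 ± 0.20, 1.90 ± 0.20 and 3.74 ± 0.20 in the same order. Usp18, which restrains the type I interferon receptor, rose with IL-27 by 1.85 ± 0.27 in WT cells and with IL-6 and IL-27 by 2.49 ± 0.27 and 2.78 ± 0.27 in STAT3-deficient cells, and its IL-6 interaction of 2.30 ± 0.38 had the sign of that of Stat2. The list medians of these comparisons lay between -0.01 and 0.09.

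Of 11 measured partners of STAT proteins, 4 were called higher with IL-6 and with IL-27 in WT cells and 3 with each in STAT3-deficient cells, beside the same shares of all probe sets, with 0 lower by limma (1, 0, 1 and 1 lower at an unadjusted p under 0.05). Irf9, the DNA-binding partner of STAT2, rose by 1.40 ± 0.09 with IL-6 and 2.01 ± 0.09 with IL-27 in WT cells, and by 1.65 ± 0.09 and 1.63 ± 0.09 in STAT3-deficient cells. Irf1, an interferon-induced factor, rose by 1.04 ± 0.09, 2.77 ± 0.09, 1.83 ± 0.09 and 2.67 ± 0.09 in that order, and its IL-6 interaction was 0.79 ± 0.13. Batf, which acts beside STAT3 on shared enhancers, rose by 1.72 ± 0.14 with IL-6 and 0.87 ± 0.14 with IL-27 in WT cells, with an IL-6 interaction of -1.81 ± 0.20. In medium 6 partners were called higher and 2 lower without STAT3, including Ep300 (0.80 ± 0.14), Kpna6 (0.75 ± 0.20) and Ndufa13 (-0.57 ± 0.18), with a list median of 0.39 beside 0.00 for all probe sets, of which 11.3% were called higher and 13.0% lower.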

How the data were processed

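The authors deposited 1 intensity value for each probe set and array, a linear signal made with GCOS per the submitters' processing notes; no source used here gives the GCOS version, how probes were summarised, or a genome build. No value was 0 or below, and each array had a trimmed mean (2% off each end) of 500. Probe sets were named from GEO's platform annotation, and 64 control probe sets were left out. Signals were taken as log2 of the signal plus 32, which shrinks changes of dim probe sets, and quantile normalised with limma (version 3.58.1, R 4.3.3). Probe sets above the array median on at least 3 arrays were kept. Precision is limited by the number of arrays.

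All 18 arrays entered 1 limma model with 6 group means (12 residual and 6.39 prior degrees of freedom, variance trend, checked on simulated data). The 9 comparisons were each cytokine against medium, IL-27 against IL-6, the difference of each effect between genotypes, and genotype in medium. Tests were two-sided, with Benjamini-Hochberg adjustment over all 26860 probe sets. The p-values measure the spread between samples, whose animals are not named.

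The members, the pathway and marker lists and the alternatives were chosen with earlier results of these data known. Named are all STAT probe sets, up to 3 called members of a pathway list by size, called members where few, and for each STAT gene the 4 genes with the highest Pearson correlation to its brightest probe set. Genes outside the STAT family were read from the tested probe set with the highest mean. Alternatives were median centring, the scale as deposited, another constant or filter, no variance trend, replicate blocks, only the arrays compared, and leaving out arrays. Promoter sequences come from RefSeq (GRCm38.p6).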

Additional observations from a re-analysis of the deposited data

Results flagged for a closer look

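The response to IL-6 differed between STAT3-deficient and WT cells, by the test of the difference itself, in 4 of the 13 STAT probe sets. The difference was 1.30 for Stat2 1421911_at and 1.02 for Stat2 1450403_at, larger without STAT3, and -0.79 for Stat3 1426587_a_at and -0.87 for Stat3 1460700_at, smaller without STAT3. Of all probe sets 1.25% were called higher and 0.964% lower in this comparison. Within each gene the called probe sets had the same sign. The remaining Stat3 probe sets, 1459961_a_at and 1424272_at, stood at -0.40 and -0.83 and were not called. Over the alternatives the values of the 4 called probe sets ranged from 1.01 to 1.52, 0.69 to 1.19, -0.91 to -0.64 and -0.97 to -0.70 in the order given, with no change of sign. Their adjusted p from limma ranged from 0.00151 to 0.0814, 0.007 to 0.222, 0.00838 to 0.355 and 0.00491 to 0.267.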

How the results depend on the processing

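Of 117 results (13 STAT probe sets in 9 comparisons), 35 were called, and 22 of these kept call and direction in every alternative run, while 13 lost the call in at least 1. Of the 82 not called, 9 were called in at least 1 alternative, and 39 changed sign without a call. The direction also turned in 2 results for genotype in medium with median centring: Stat5b 1422103_a_at, called higher, was at -0.26 and no longer called, and Stat6 1426353_at, not called before, was called lower at -0.62, where that scaling moves the median of all probe sets to -0.36.

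The number of STAT probe sets called for IL-27 against IL-6 without STAT3, 1, was 0 with median centring and 0 with only the arrays compared, and 0 to 2 when 1 array was left out: 0 without IL-6 replicate 2 or IL-27 replicate 1 or 2, and 2 without IL-6 replicate 1 or IL-27 replicate 3. For the IL-6 interaction, 4, it was 2 on the deposited scale, 0 with median centring, 2 without the variance trend, and 2 to 4 when 1 array was left out, 2 without WT IL-6 replicate 3 or STAT3-deficient IL-6 replicate 2. For genotype in medium, 7, it was 4 to 6 when 1 array was left out, 4 without WT medium replicate 2 or STAT3-deficient medium replicate 1. The cause was not tested. The other counts stayed within 1.5 times: 4 to 8 for IL-6 in WT cells, 5 to 6 for IL-27, 2 to 3 for IL-27 against IL-6, and 4 to 5 and 5 in STAT3-deficient cells; the IL-27 interaction stayed at 0.

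Over all probe sets the calls ranged from 560 to 1216 for IL-27 in WT cells (822), 396 to 909 for IL-27 against IL-6 (624), 200 to 472 for IL-6 (383), 527 to 1469 for IL-27 (968) and 17 to 93 for IL-27 against IL-6 (55) without STAT3, 404 to 1006 for the IL-6 interaction (594), 2 to 6 for the IL-27 interaction (2), and 4136 to 11387 for genotype in medium (6515). The share of calls that were higher was 98.2% with median centring, against 72.7%, for IL-27 without STAT3, and 20% on the deposited scale, against 50%, for the IL-27 interaction.

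The labels do not explain the sample numbers, so these were not taken as pairs. Not every same-numbered pair of arrays correlated above 0.1 in its deviations from the group means, though real pairs need not all do so. In WT cells 6 of 9 same-numbered pairs did (-0.01 to 0.21, median 0.13) and 0 of 18 other pairs (median -0.05); in STAT3-deficient cells 4 of 9 (-0.15 to 0.34, median 0.08) and 6 of 18 (median -0.03). As a hint from the data, not the design, 13 of 18 arrays correlated best with their own number. With the number as a replicate block, across all arrays or within genotype, 8 STAT probe sets were called for IL-6 in WT cells, against 6. Within genotype, 3 were called for IL-27 against IL-6 in WT cells, against 2. Genotype in medium could not be fitted with a block within genotype, since each such block lies in 1 genotype.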
